A study of Oryza sativa with 4 samples.

Results

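Tonoplast intrinsic proteins (TIPs) are the aquaporins of the vacuolar membrane. The rule names 10 rice TIP genes by identifier, and 7 of them were found among the 20567 identifiers of the deposited tables. Names are written here with a hyphen, the form the RefSeq gene table has for most of these genes but not for TIP4-3 and TIP5-1, so that TIP1-1 is the gene also known as TIP1;1. Poly(A) RNA was sequenced from protoplasts, which are cells whose walls have been digested away. They came from 93-11, an indica cultivar with 2 libraries, and from Nipponbare, a japonica cultivar with 2 libraries. All seedlings were 3 days old and grown in nutrient solution, and the tissue was the last 5 mm of the root, cut from a total of 800 crown roots. No treatment or mutation separates the groups, so the design holds 1 comparison, cultivar against cultivar. TIP1-2, TIP2-1, TIP2-2 and TIP4-1 are in both tables, TIP1-1 is in that of 93-11 only, and TIP3-1 and TIP5-1 are in that of Nipponbare only. TIP3-2, TIP4-2 and TIP4-3 are in neither and are not analysed here. No source used here states what decided whether a gene was listed, so a missing entry is not a level of 0.

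As background, a plant cell grows mainly by taking water into its vacuole, and TIPs let water cross the membrane that bounds it. TIP1 and TIP2 genes serve the large central vacuole of vegetative cells, and TIP3 proteins sit in the storage vacuoles of seeds. In Arabidopsis some TIPs also conduct small solutes: TIP1-1, TIP1-2, TIP2-1 and TIP4-1 pass urea, and TIP2 proteins pass ammonia.

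Levels are in RPM, reads scaled to a common library total. The implied totals lay between 21504426 and 21504715 reads, so 1 read was worth 0.0465 RPM and 0 reads allow up to 0.14 RPM, the worth of 3 reads (counting error only). The deposited values of 1 RPM or more had lost their decimal points, which were restored from the whole read numbers they stand for. A restored value is 10 times too low if both read numbers of the cultivar truly end in 0. The labels do not state whether the libraries of 1 cultivar are separate preparations, so p-values and SDs measure a spread that may be technical. In Nipponbare the libraries differed by 0.48% of the mean for TIP2-1, 4.2% for TIP2-2 and 0.192% for TIP4-1. Counting alone gives SDs of 1.53%, 4.7% and 3.57%, so no spread beyond counting shows for these genes in Nipponbare. For TIP1-2 the Nipponbare libraries differed by 4.3%, with a counting SD of 2.51%. In 93-11 the libraries differed by 3.41% for TIP2-1, 3.63% for TIP2-2 and 25.8% for TIP4-1. Counting SDs there are 0.983%, 2.56% and 25.4%, so TIP2-1 differed by more than counting alone gives. An effect of the cultivar and one of its preparation cannot be told apart. In RNA from many cells, fewer cells of a type and less RNA per cell cannot be told apart either. RPM is not corrected for transcript length, so levels are compared for each gene between cultivars, and not between genes.

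The TIP genes moved in opposite directions between the cultivars. Both TIP2 genes were higher in 93-11, TIP2-1 by 2.43-fold and TIP2-2 by 3.38-fold. TIP1-2 and TIP4-1 were higher in Nipponbare, by 10.3-fold and 50.6-fold. For all 4 genes the libraries of the cultivars did not overlap. The same held for every gene of the comparison and marker lists below that is in both tables. The share over all tested genes was not computed, so this separation is not a result about the TIP genes. By limma, with p-values adjusted over all 7269 genes tested, 2 members were called higher in 93-11 and 2 in Nipponbare. The same test called 96.9% of all tested genes, 59% higher in 93-11 and 37.9% higher in Nipponbare, so the fact of being called is not a result about the TIP genes. These counts can include genes whose decimal point was placed wrongly. The sizes and directions are what distinguish the members from each other.

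**Figure D1:**
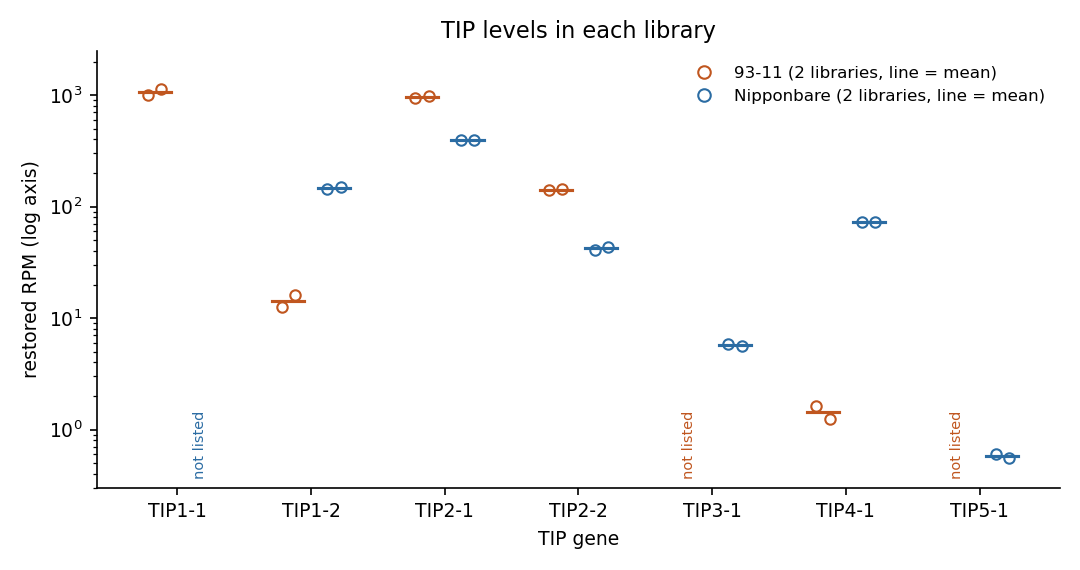
Restored RPM (log axis) of the 7 TIP genes found, with an open circle for each library and a line at the mean of each cultivar. TIP2-1 and TIP2-2 are higher in 93-11, TIP1-2 and TIP4-1 are higher in Nipponbare, and 3 genes are listed for 1 cultivar only.

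The TIP1 genes, widely used as marks of the central vacuole, could be compared through TIP1-2 alone. TIP1-1 (LOC_Os03g05290, chromosome 3 by its identifier) had 994 and 1143 RPM in the 93-11 libraries, a mean of 1068 ± 105 RPM (SD, n = 2). Its libraries differed by 13.9% of the mean, where counting alone gives an SD of 0.933%. With no entry for Nipponbare it has no comparison. TIP1-2 (LOC_Os01g74450, chromosome 1) had 12.6 and 15.95 RPM in 93-11, against 144 and 150 RPM in Nipponbare. Both 93-11 libraries were low and both Nipponbare libraries high. The difference was -3.29 on the log2(RPM + 1) scale (SE 0.117, limma adjusted p = 6.4e-06), 93-11 minus Nipponbare.

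The values of TIP1-2 in 93-11 differed between libraries by more than counting alone gives. They rest on 270 and 343 reads that differ by 23.8% of the mean, with a counting SD of 8.08%. In each cultivar 1 library's read number ends in 0 (270 in 93-11 and 3230 in Nipponbare), so its decimal point was placed with the help of the other library. If the 93-11 values were 10 times higher, they would be 125.6 and 159.5 RPM, and the difference would be -0.05 (limma adjusted p = 0.675).

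The TIP2 genes, whose products are water and ammonia channels in Arabidopsis, were both higher in 93-11. TIP2-1 (LOC_Os02g44080, chromosome 2) had 947 and 979.7 RPM in 93-11, against 396 and 398 RPM in Nipponbare. The log2(RPM + 1) difference was 1.28 (SE 0.0304, limma adjusted p = 2.04e-06). TIP2-2 (LOC_Os06g22960, chromosome 6) had 139.7 and 145 RPM in 93-11, against 41.2 and 43.0 RPM in Nipponbare. All 4 values were tight within their cultivar, and the difference was 1.73 (SE 0.0463, limma adjusted p = 2.68e-06).

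The directions of the TIP2 genes also depend on the decimal points in Nipponbare. The Nipponbare values of TIP2-2 stand for 886 and 924 reads, but the same digits could stand for 10 times as many, or 412 and 429.7 RPM, which would exceed the levels in 93-11. With TIP2-2 raised in this way its difference would be -1.56, and with TIP2-1 raised it would be -2.04. Each case needs both of the read numbers to end in 0.

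TIP3-1 (LOC_Os10g35520, chromosome 10), of the seed storage vacuole subgroup, was listed for Nipponbare at 5.81 and 5.67 RPM. These values stand for 125 and 122 reads, and the libraries differed by 2.43% of the mean, within the counting SD of 12.7%. With 10 times as many reads they would be 58.1 and 56.7 RPM. TIP5-1 (LOC_Os04g46490, chromosome 4), whose Arabidopsis counterpart is known from pollen, had 0.605 and 0.558 RPM in Nipponbare. That is 13 and 12 reads, and values below 1 RPM kept their decimal point. Neither gene has an entry in 93-11 to set against these values.

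TIP4-1 (LOC_Os05g14240, chromosome 5), whose Arabidopsis counterpart conducts urea, had the widest gap of the 4 compared. It had 1.63 and 1.26 RPM in 93-11, from 35 and 27 reads, against 73.0 and 72.8 RPM in Nipponbare, from 1569 and 1566 reads. The log2(RPM + 1) difference was -4.92 (SE 0.0955, limma adjusted p = 1.42e-06), and of the 7269 tested genes 182 had a lower one. With the 93-11 values 10 times higher, at 16.3 and 12.6 RPM, the difference would still be -2.27 (limma adjusted p = 3.14e-05).

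The make-up of the family differed in the same way, and shares within a library do not depend on how libraries are scaled. They are shares of reads, with no correction for length. Over the 4 members listed for both cultivars, TIP2-1 held 85.9% ± 0.151 of the TIP reads in 93-11 and 60.2% ± 0.433 in Nipponbare (SD, n = 2 each). TIP2-2 held 12.7% ± 0.00314 in 93-11 and 6.38% ± 0.122 in Nipponbare. TIP1-2 held 1.27% ± 0.181 in 93-11, against 22.3% ± 0.443 in Nipponbare. TIP4-1 held 0.129% ± 0.0268 in 93-11, against 11.1% ± 0.132 in Nipponbare. As restored, the TIP2 genes made up nearly all of these reads in 93-11, while in Nipponbare TIP1-2 and TIP4-1 held a larger part. The shares rest on the decimal points: with the lowest candidate of each library TIP1-2 held 0.756% in 93-11 and 12.4% in Nipponbare. With its own values alone taken 10 times higher, TIP1-2 would hold 11.4% in 93-11, and TIP2-2 would hold 40.5% in Nipponbare. For the smallest share, that of TIP4-1 in 93-11, the 95% Wilson intervals ran from 0.106% to 0.206% and from 0.0756% to 0.16% in the 2 libraries, which covers counting error only. No share of a member overlapped between the cultivars, but an exact permutation test of 2 against 2 libraries cannot give a two-sided p below 0.333. The shares restate the read numbers behind the differences above and are not separate evidence.

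**Figure D2:**
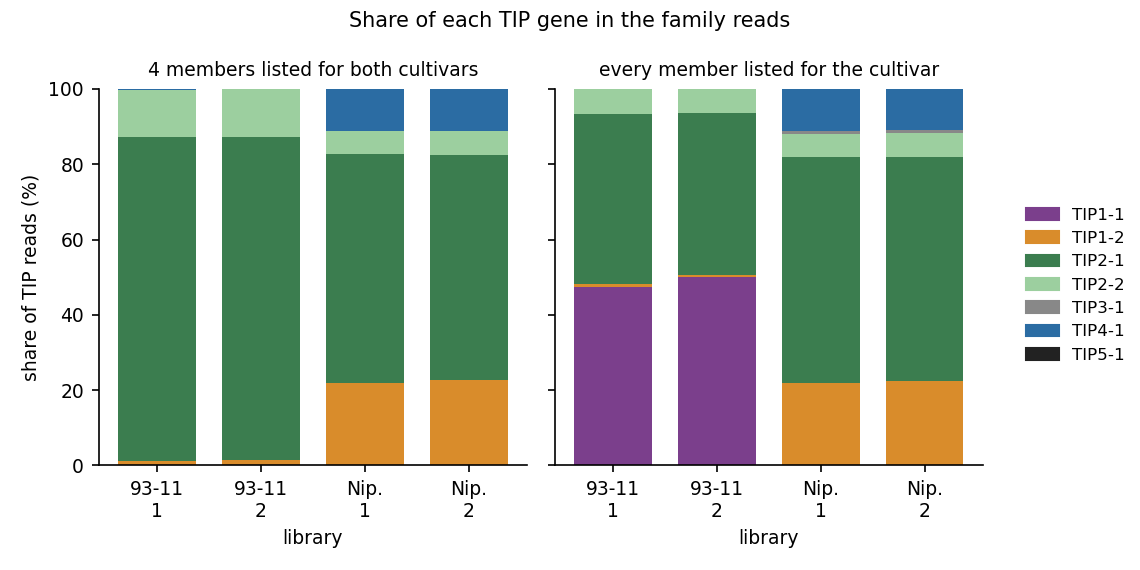
Share of each TIP gene in the TIP reads of each library (%, stacked to 100), over the 4 genes listed for both cultivars (left) and over every gene listed for the cultivar (right). On the left TIP2-1 fills 85.8% to 86% in 93-11 and 59.9% to 60.6% in Nipponbare, and on the right TIP1-1 takes 47.5% and 50% in 93-11, where Nipponbare has no entry for it (TIP3-1 and TIP5-1 are too small to stand out).

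Counting every member a table lists changes the picture in 93-11 more than in Nipponbare. There TIP1-1 held 47.5% and 50.0% of the TIP reads, TIP2-1 45.2% and 42.9%, TIP2-2 6.67% and 6.34%, TIP1-2 0.599% and 0.698%, and TIP4-1 0.0777% and 0.055%. In Nipponbare TIP2-1 held 60.0% and 59.4%, TIP1-2 21.8% and 22.4%, TIP4-1 11.0% and 10.9%, TIP2-2 6.24% and 6.41%, TIP3-1 0.88% and 0.846%, and TIP5-1 0.0915% and 0.0833%. These totals hold different genes, so they are given for each cultivar by itself.

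Summed over the 4 shared members, the TIP genes had 1101 and 1142 RPM in 93-11, against 654 and 664 RPM in Nipponbare. The sum was 1.7-fold higher in 93-11, between 1.66-fold and 1.75-fold over the 4 pairs of libraries. Most of it is TIP2-1. Median-ratio scaling, which takes 1 factor per library from the 6205 genes with reads in all 4, gave a fold of 1.17. The direction of the sum also rests on the decimal points, since with the Nipponbare values of 1 member 10 times higher the fold would be 0.566 (TIP1-2), 0.265 (TIP2-1) or 0.853 (TIP4-1).

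Ratios between members within a library show the same opposition and need no scaling, but they too rest on the decimal points. TIP2-1 had 6.78 and 6.76 times the reads of TIP2-2 in 93-11, against 9.61 and 9.26 times in Nipponbare, so this pair changed least in proportion. TIP2-1 had 75.4 and 61.4 times the reads of TIP1-2 in 93-11, against 2.75 and 2.65 times in Nipponbare. The ratio of TIP2-1 to TIP4-1 was 582 and 780 in 93-11, against 5.43 and 5.47 in Nipponbare. TIP1-2 and TIP4-1, both higher in Nipponbare, differed from each other as well, with 7.71 and 12.7 reads of TIP1-2 per read of TIP4-1 in 93-11 against 1.97 and 2.06 in Nipponbare. None of the 6 ratios overlapped between cultivars, with the same smallest p of 0.333 for an exact permutation test. The ratios are formed from the same read numbers as the differences and shares above, so they are not separate evidence. How often ratios of other gene pairs overlap was not computed.

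The differences stand within a wide and 2-peaked range over the tested genes. The tested genes had differences of -9.37 to 9.21 on the log2(RPM + 1) scale with a median of 1.44. Between 0 and 1 lay 400 of them, fewer than the 878 between -2 and -1 or the 1567 between 1.5 and 2.5. How genes came to be listed is not stated, so the percentage called and the median describe the listed genes and may not hold for all expressed genes. TIP2-1 lay 0.16 below the median and TIP2-2 lay 0.29 above it, close to the middle of the tested genes. TIP1-2 (-4.73 relative to the median) and TIP4-1 (-6.36) lay far below it, with 8.38% and 2.5% of the tested genes lower. The median over the 4 TIP members was -1.01. Median-ratio scaling moved the median of all genes to 1.03 and quantile normalization moved it to 0.59. Under quantile normalization TIP2-1 and TIP2-2 lay 1.53 and 1.41 above the median. With no filter the median was 1.12, and they lay 0.16 and 0.61 above it. Their place relative to other genes thus depends on the scaling and the filter. Genes with 0 reads in 1 cultivar can pass the filter of a mean of 1 RPM through the other cultivar alone, and they enter the median. All 4 members kept their direction under both scalings. Neither scaling brought the median of the tested genes to 0, so which scaling is right cannot be told from these data.

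**Figure D3:**
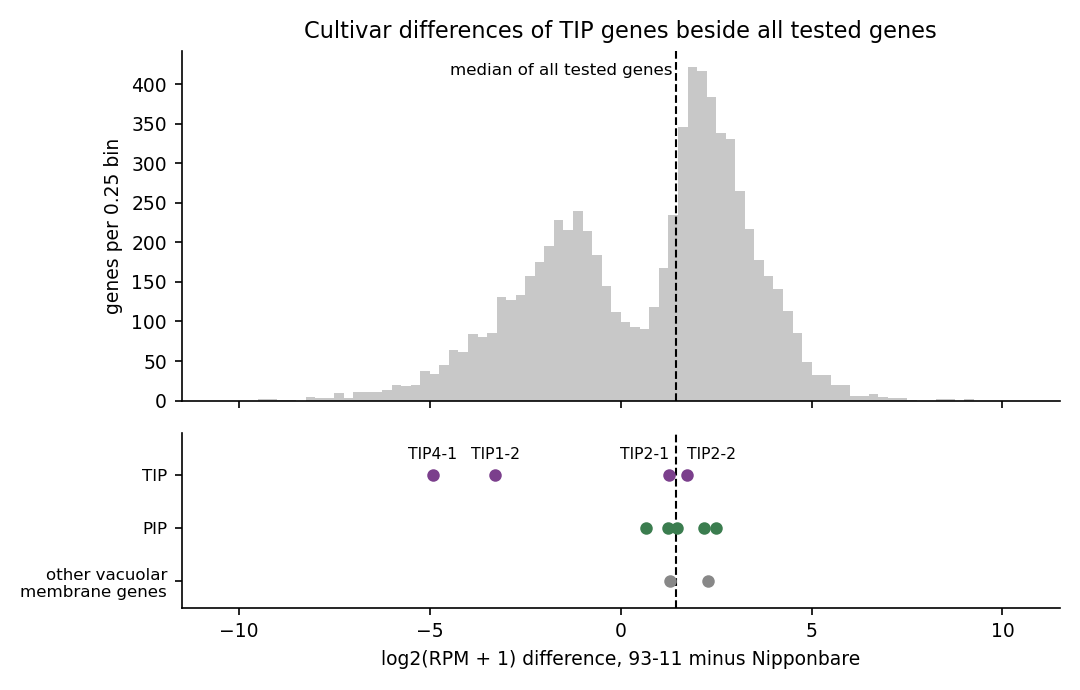
Top: number of tested genes per difference bin, 93-11 minus Nipponbare on the log2(RPM + 1) scale, with the median of 1.44 dashed. Bottom: the tested TIP, PIP and other vacuolar membrane genes as points, with SE bars narrower than the points. Of the other vacuolar membrane genes, SPX-MFS2 (2.27) could pass the filter of a mean of 1 RPM only by being higher in 93-11. TIP2-1 and TIP2-2 sit beside the median, as do PIP1-1 and PIP2-1. PIP2-2 lies 0.77 below it, and PIP2-4 and PIP1-3 lie 0.74 and 1.06 above it. TIP1-2 (-3.29) and TIP4-1 (-4.92) sit far to the left.

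The aquaporins of the plasma membrane (PIPs) let water into the cell. Of 11 PIP genes 5 were in both tables, and all 5 were called higher in 93-11 and none in Nipponbare. Of all tested genes 59% were called higher in 93-11, and a count this small says little of the PIP genes. Their median difference was 1.47, against 1.44 over all tested genes. PIP1-3 had the highest difference (2.50, SE 0.0744, limma adjusted p = 3.57e-06) and PIP2-2 the lowest (0.67, SE 0.0382, limma adjusted p = 3.46e-05). Median-ratio scaling gave PIP2-2 a difference of 0.13 and quantile normalization gave it 1.60. The 4 shared TIP genes had 0.65 and 0.63 times the summed RPM of the 5 shared PIP genes in 93-11, against 0.795 and 0.803 times in Nipponbare. By distance over the 4 libraries, which sets levels uncorrected for length side by side and so follows abundance as well as pattern, TIP2-1 had the closest neighbour among the 8 PIP and other vacuolar membrane genes in both tables. That was PIP2-2, at a Euclidean distance of 0.87 on the log2(RPM + 1) scale. The nearest genes to the other members lay farther off, PIP1-1 at 3.76 from TIP2-2, PIP1-3 at 6.70 from TIP1-2 and PIP2-4 at 7.31 from TIP4-1.

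Of 19 genes for other proteins of the vacuolar membrane, namely proton pumps and transporters of ions, metals, phosphate and sugars, the tables allowed few comparisons. Both tables hold 3 of them and 2 passed the filter of a mean of 1 RPM, SPX-MFS2 through its level in 93-11 alone. VIT1 (LOC_Os04g38940), a metal transporter gene, had 4.46 and 3.81 RPM in 93-11, against 0.977 and 1.26 RPM in Nipponbare. Its difference of 1.28 (SE 0.11, limma adjusted p = 0.000186) became 0.19 with no call under quantile normalization (adjusted p = 0.154). SPX-MFS2 (LOC_Os02g45520), a phosphate transporter gene, had 3.77 and 3.91 RPM in 93-11 and 0 reads in Nipponbare, at least 27.5-fold higher against 3 reads per library. It could pass the filter only by being higher in 93-11, so no test is given. TPKb, a potassium channel gene, had 1.67 and 2.00 RPM in 93-11 and 0 reads in Nipponbare and did not pass the filter. The vacuolar pyrophosphatase genes OVP1 (62.3 and 61.6 RPM) and OVP2 (91.7 and 94.0 RPM), which pump protons into the vacuole, were listed for Nipponbare only. The cation exchanger genes NHX1 (28.6 and 31.7 RPM) and CAX1a (35.7 and 37.9 RPM) and the sucrose transporter gene SUT2 (30.04 and 29.8 RPM) were listed for 93-11 only.

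Markers of root cells differed between the cultivars as well. The 5 markers of dividing cells summed to 228 and 233 RPM in 93-11, against 1.12 and 1.44 RPM in Nipponbare, where CYCB2-1 and CYCB2-2 were at 0 reads. The 2 root hair markers in both tables summed to 61.0 and 60.9 RPM in 93-11, against 0.791 RPM in both Nipponbare libraries, and the third, RHL1, was at 0 reads in Nipponbare. Lsi2, the endodermis and exodermis marker in both tables, had 10.2 and 12.8 RPM in 93-11 and 0 reads in Nipponbare, while CASP1 (34.4 and 34.3 RPM) was listed for 93-11 only and Lsi1 (4.19 and 4.88 RPM) for Nipponbare only. The 2 stele markers in both tables summed to 15.8 and 16.9 RPM in 93-11, against 0.0465 and 0.279 RPM in Nipponbare, where SHR1 was at 0 reads. CESA4 and CESA9, the other stele markers, were listed for Nipponbare only, at 6.65 and 5.999 RPM and at 3.12 and 2.33 RPM. Of 5 leaf markers, RBCS3 and CAB1R were in both tables and summed to 5.999 and 6.70 RPM in 93-11 with 0 reads in Nipponbare, and RBCS4 had 0.698 and 0.837 RPM in Nipponbare. The markers of dividing cells, root hairs and stele that both tables list are thus at 1.02 RPM or less in Nipponbare, while CESA4 and CESA9 stand above that there and have no entry in 93-11. The part of these cell types in the TIP differences was not tested.

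**Figure D4:**
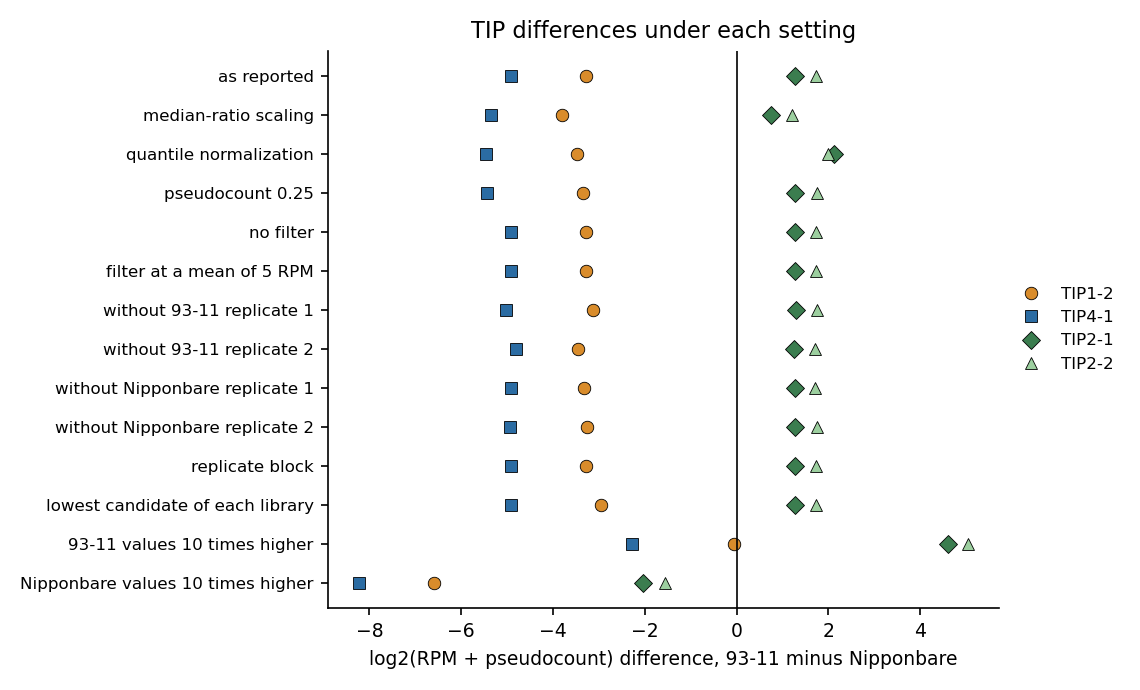
Difference of the 4 tested TIP genes, 93-11 minus Nipponbare on the log2 scale, as reported (top) and under each other setting. TIP1-2 and TIP4-1 stay left of 0 and TIP2-1 and TIP2-2 right of it, except where the Nipponbare values of TIP2-1 (-2.04) or TIP2-2 (-1.56) are taken 10 times higher. With the 93-11 values 10 times higher, TIP1-2 lies at -0.05.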

How the data were processed

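Per the submitters' processing notes, HISAT2 2.0.4 and HTSeq 0.11.2 were used. The build, annotation and strand setting stand in no source used here, so reads shared between family members cannot be judged. The authors deposited 1 table of RPM per cultivar with a column for each of its 2 libraries, 13486 genes for 93-11 and 15657 for Nipponbare, 8576 of them in both. Between 61.6% and 76.5% of the values per library had lost the decimal point. The smallest value of a library gave its total. Each digit string was a whole multiple of 1 read at some power of 10 (tolerance 1e-06 of a read plus 1e-12 of the value, 0 exceptions). The power was the one that brought the libraries of a cultivar closest together, and the lowest where several did so equally. Genes whose closest pair differed by more than 0.4 in log10 were left out, 3 in 93-11 and 1 in Nipponbare. Listed genes held 42.3% to 55.7% of the totals.

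The comparison, 93-11 minus Nipponbare, used limma 3.58.1 (R 4.3.3, trended variance, Benjamini-Hochberg, threshold 0.05) on log2(RPM + 1), which understates changes of low genes. It covered the 7269 genes of both tables that averaged 1 RPM or more. Alternatives were other scalings, pseudocounts, filters and decimal points, a replicate block and leaving out each library. The procedure was tested on simulated data, where most false calls were genes restored 10 times too low, so the counts of called genes in the deposited data can include such errors. All 10 members are named, and from the other lists the extremes and the genes nearest to a member. Those listed for 1 cultivar only and TPKb were chosen after their values were seen. The members and lists were chosen with earlier results of these data known. Gene names rest on knowledge of the rice literature. The RefSeq gene table of assembly ASM3414082v1 placed 9 of 10 TIP symbols, 11 of 11 PIP symbols and 7 of 19 other vacuolar membrane symbols on the chromosome of the identifier. The rest (TIP4-3 and 12 vacuolar genes, among them OVP1, OVP2, NHX1 and SPX-MFS2) were not found in it, nor were FH1, RHL1 and the RBCS markers.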

Additional observations from a re-analysis of the deposited data

How the results depend on the processing

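All 4 TIP differences kept direction and call in 10 of 11 planned settings. Most of these settings could not turn a direction. Other filters and the replicate block leave the differences as they are. With libraries that do not overlap, neither another pseudocount nor leaving out a library can change a sign. A kept call says little where 96.9% of all tested genes were called. How many of all genes kept direction and call was not computed. The 1 exception among the 11 settings took the lowest candidate of each library alone. It gave TIP1-2 27 reads beside 343 in 93-11 and 3094 beside 323 in Nipponbare. The difference of TIP1-2 was then -2.96 (limma adjusted p = 0.22), and 1 TIP member in place of 2 was called higher in Nipponbare. Leaving out each library in turn gave -3.45 to -3.13 for TIP1-2, 1.25 to 1.30 for TIP2-1, 1.70 to 1.76 for TIP2-2 and -5.03 to -4.81 for TIP4-1. In settings chosen after seeing the data, values 10 times higher in Nipponbare turned TIP2-1 to -2.04 and TIP2-2 to -1.56, and values 10 times higher in 93-11 took TIP1-2 to -0.05. The other 5 such settings kept direction and call of the member they changed. The sum over shared members (1.7-fold) was 1.17-fold under median-ratio scaling, 1.89-fold with the lowest candidates and 3.29-fold over every listed member, where the 2 totals hold different genes. With 1 member 10 times higher in 93-11 it was 1.9-fold (TIP1-2), 14.9-fold (TIP2-1), 3.64-fold (TIP2-2) and 1.72-fold (TIP4-1), and with 1 member 10 times higher in Nipponbare it was 0.566 (TIP1-2), 0.265 (TIP2-1), 1.08 (TIP2-2) and 0.853 (TIP4-1). Shares moved by more than their SD in 12 of 40 planned results, all with the lowest candidates or over every listed member. The remaining planned settings could not move them that far. Median-ratio scaling leaves shares unchanged, and leaving out 1 of 2 libraries shifts their mean by less than their SD. So 12 of 40 does not measure how stable the shares are. Shares also moved in all 8 results with 1 member 10 times higher. A filter at a mean of 5 RPM left 2671 genes higher in 93-11 in place of 4290, with fewer genes tested. Deviations of libraries with the same replicate number correlated at 0.019 across genes, so nothing shows that the numbers pair libraries. With the replicate number as a block 4294 genes were higher in 93-11 and 2776 in Nipponbare (2757 without it), and the 4 TIP calls were kept. The low reads of TIP4-1 in 93-11 and of TIP5-1 limit their precision.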
